A study of Mus musculus with 18 samples.

Results

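The genes described here are 9 genes of homologous recombination repair, named by symbol and found in the count table through their mouse Ensembl identifiers. All 9 were found among the 50689 features of the table. They are Bard1, Brca1, Palb2 and Brca2, which act early at resected breaks, Rad51ap1, Rad54l and Fignl1, which act around strand exchange, and Blm and Fancd2, which act on joined or cross-linked DNA. RNA was sequenced from proliferating satellite cells (muscle stem cells), grown from the tibialis anterior of C57BL6 mice. There were 9 control libraries of genotype Hoxa10f/f and 9 libraries of the satellite cell knockout, scKO, of genotype Pax7-CreERT2/+;Hoxa10f/f. Both copies of Hoxa10 are floxed in both groups. In scKO the Cre recombinase is expressed from Pax7, and the cells received 1 µM of 4-hydroxytamoxifen over 2 days. As the control labels mention no drug, the effects of the deletion, of Cre and of 4-hydroxytamoxifen cannot be told apart. Whether each library is its own animal or culture is not stated, so p-values measure only the spread between these libraries, which may be technical.

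Homologous recombination repairs double-strand breaks and broken replication forks by copying the sister chromatid, so it works in the S and G2 phases. Resected single-stranded DNA is coated by the RPA proteins before it is paired with the intact copy. In dividing cells the transcripts of many of these genes rise around S phase, together with those of DNA replication. Satellite cells divide repeatedly when they leave quiescence. In such bulk samples, fewer cells in S and G2 and less RNA per cell cannot be told apart.

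The libraries fell into 5 deep ones, with 4346150 to 5986128 counts of unique molecular identifiers (UMIs), and 13 shallow ones, with 420197 to 968559 counts. Deep libraries were control 1 and 2 and scKO 6, 7 and 9, and scKO was compared with control within each class and over all libraries with the class in the model. Levels are given as CPM, a count scaled to the library total, scaled within a class by trimmed means of M values. Hoxa10, the targeted gene, separated the groups in both classes, with all scKO libraries under the lowest control. Its deep levels were 50.2 and 53.2 CPM in control and 13.6, 9.39 and 9.08 CPM in scKO. In shallow libraries it ranged from 13.1 to 57.3 CPM in control and from 1.68 to 4.24 CPM in scKO. There Hoxa10 had only 1 to 3 counts per scKO library, and fewer than 3 in 4 of the 6. With the depth class in the model its log2 fold change was -2.54 (SE 0.25; adjusted p = 3.01e-06 by edgeR).

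In the deep libraries all 9 recombination genes had lower fitted levels in scKO, with a median log2 fold change of -0.73, from -2.24 for Palb2 to -0.35 for Brca2. Bard1, Palb2, Rad51ap1, Fignl1 and Blm fell past the threshold, an adjusted p under 0.05 over all genes tested. Rad54l, Fancd2, Brca1 and Brca2 did not pass it. Over all 13136 genes tested in deep libraries, 50.2% had a negative log2 fold change, the median was -0.00 and 7.03% fell past the same threshold. The share that rose was 7.31%, and 0 of the 9 did. The genes were chosen with earlier results of these data known, so the shares over all genes, here and below, give a scale and test nothing. Of the 9 genes, 8 had every scKO library below both controls, against 22.3% of all genes tested, and Brca2 overlapped. Those 8 also had a lower mean CPM in shallow scKO than in shallow control, and 13.8% of all genes tested in deep libraries met both conditions. Some of these shallow means were close and rest on few counts. Blm had 4.53 CPM in control and 4.37 in scKO, Rad54l 3.65 and 3.21, and Palb2 1.06 and 0.957. For Palb2 the shallow direction turned when counts were summed, with 0.831 CPM in control and 0.918 CPM in scKO from 4 counts each. The plot of levels by library shows each value behind these comparisons.

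Bard1 is the partner without which Brca1 is unstable, and the pair acts as a ubiquitin ligase at breaks. The gene (ENSMUSG00000026196) spans 71027498 to 71103146 of chromosome 1 (GRCm38, minus strand). In deep libraries its level was 41.3 and 40.9 CPM in control, from 172 and 252 counts, and 19.7, 24.98 and 22.9 CPM in scKO, from 109, 149 and 121 counts. All 3 scKO libraries were low and the groups did not overlap. The log2 fold change was -0.87 (SE 0.14; adjusted p = 0.00178 by edgeR), or 1.82-fold lower in scKO. Its partner Brca1 (ENSMUSG00000017146; chromosome 11, 101488764 to 101551955) was counted far less often, at 27 and 34 counts in control and 19, 27 and 27 in scKO. Those counts gave 6.49 and 5.52 CPM against 3.43, 4.53 and 5.11 CPM. The groups lay apart by less than the spread among the scKO libraries. The Brca1 log2 fold change was -0.45 (SE 0.29; 95% interval -1.07 to 0.17; adjusted p = 0.327 by edgeR), an interval that also holds the value of Bard1.

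Palb2 bridges Brca1 to Brca2, which prepares the single-stranded DNA for strand exchange. Palb2 (ENSMUSG00000044702; chromosome 7, 122107262 to 122132985) had the lowest log2 fold change of the 9, and a log2 fold change of -1 or less was found in 1.04% of the genes tested in deep libraries. Its counts were 25 and 31 in control and 5, 3 and 11 in scKO, so the level went from 6.01 and 5.03 CPM to 0.904, 0.503 and 2.08 CPM. Every scKO library was under the lower control by more than the range within either group. The log2 fold change was -2.24 (SE 0.45; 95% interval -3.20 to -1.28; adjusted p = 0.00504 by edgeR). It was -2.93 (adjusted p = 0.0021 by edgeR) without scKO 9, the highest of its group. Over the 5 fits that each left out 1 deep library it ran from -2.93 to -1.87. With so few counts the size of the change is known only coarsely. DESeq2 gave Palb2 no adjusted p.

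Brca2 (ENSMUSG00000041147; chromosome 5, plus strand, 150522630 to 150570329) had the log2 fold change nearest to 0 of the 9. Its deep levels were 7.93 and 9.74 CPM in control and 6.14, 6.37 and 8.52 CPM in scKO. The highest scKO library lay above the lower control. The log2 fold change was -0.35 (SE 0.24; 95% interval -0.88 to 0.17; adjusted p = 0.373 by edgeR).

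Rad51ap1 helps to form the joint between broken and intact DNA. The gene (ENSMUSG00000030346; chromosome 6, minus strand, 126923050 to 126939587) had 36.8 and 34.6 CPM in deep controls, and 17.0, 25.5 and 21.95 CPM in deep scKO. The groups did not overlap, though scKO varied more than control. Its log2 fold change was -0.73 (SE 0.17; adjusted p = 0.0116 by edgeR). Rad54l, a motor protein that drives strand exchange, lies on chromosome 4 at 116094264 to 116123690 (ENSMUSG00000028702). It had 10.3 and 12.3 CPM in control and 6.87, 9.05 and 8.33 CPM in scKO, which did not overlap either. The Rad54l log2 fold change of -0.50 did not pass the threshold (SE 0.22; 95% interval -0.97 to -0.02; adjusted p = 0.149 by edgeR).

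Fignl1 is an ATPase that takes part in recombination repair. It spans 11787431 to 11808962 of chromosome 11 (ENSMUSG00000035455; minus strand). Its levels were 59.4 and 61.0 CPM in deep controls, from 247 and 376 counts, and 36.1, 39.2 and 35.95 CPM in deep scKO, from 200, 234 and 190 counts. The gap between the groups was several times the range within either. The log2 fold change was -0.70 (SE 0.12; adjusted p = 0.00187 by edgeR).

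Blm is the helicase that, with a topoisomerase, separates joined DNA without exchange, and Fancd2 is the protein switched on by ubiquitin in the Fanconi anaemia pathway for cross-linked DNA. Blm (ENSMUSG00000030528; chromosome 7, 80454733 to 80535119) had 16.3 and 11.5 CPM in control and 7.95, 6.37 and 8.70 CPM in scKO. The controls were further apart than the scKO libraries were. The log2 fold change was -0.84 (SE 0.23; adjusted p = 0.0264 by edgeR), but it was -0.60 (adjusted p = 0.196 by edgeR) without control 1 and -0.72 (adjusted p = 0.114 by edgeR) without scKO 7. DESeq2 did not call Blm (adjusted p = 0.0757). Fancd2 (ENSMUSG00000034023; chromosome 6, plus strand, 113531682 to 113597017) had 8.65 and 9.25 CPM in control and 6.69, 4.02 and 3.97 CPM in scKO. Its log2 fold change was -0.87 (SE 0.28; 95% interval -1.47 to -0.28; adjusted p = 0.0508 by edgeR), and without scKO 6, the highest of its group, it was -1.16 (adjusted p = 0.0165 by edgeR). Over the 5 fits that each left out 1 deep library, the Fancd2 value ran from -1.16 to -0.74, so it also moved nearer to 0. The calls of Bard1, Palb2, Rad51ap1 and Fignl1 held without each of the 5 deep libraries in turn, where edgeR adjusted p was at most 0.0442.

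The shallow libraries carry few counts of most of these genes, and only Bard1 and Rad51ap1 passed the count filter there. A count of 3, taken as the floor, corresponds to 3.10 to 7.14 CPM in a shallow library before the scaling by trimmed means. Palb2 had fewer than 3 counts in all 13 shallow libraries, 4 in the sum of the controls and 4 in that of scKO. Brca1 and Rad54l had fewer than 3 counts in 8 of them each, and Blm in 5.

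Bard1 ranged from 13.1 to 34.2 CPM in shallow controls with a median of 27.5, and from 3.96 to 15.5 CPM in shallow scKO with a median of 10.4. All but the highest of the 6 scKO libraries lay below every control. The log2 fold change was -1.26 (SE 0.30; adjusted p = 0.341 by edgeR). Rad51ap1 ranged from 7.96 to 26.3 CPM in control and from 3.96 to 22.6 CPM in scKO, with medians of 16.4 and 11.2 CPM. Its groups overlapped widely, and the log2 fold change was -0.55 (SE 0.34; adjusted p = 0.822 by edgeR). With edgeR, DESeq2 and limma-voom 0 of the 2 genes passed the threshold, and 1, Bard1, had an unadjusted p under 0.05. In this class edgeR called 0.0145% of all 6906 genes tested lower and 0.029% higher, so a call was rare for any gene, and 54.2% had a negative log2 fold change.

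Fignl1 missed the filter, yet its shallow groups did not overlap. Controls held 6 to 12 counts and scKO 3 to 5, which gave 9.54 to 17.1 CPM with a median of 13.7, and 4.24 to 7.22 CPM with a median of 5.82. Among genes that passed the filter, 0.101% had every scKO library below every control. Fancd2 overlapped, from 3.58 to 19.1 CPM in control and from 1.56 to 8.66 CPM in scKO, with medians of 9.10 and 6.37 CPM.

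Counts summed over the libraries of a class set a limit on what counting error alone allows. The shallow ratio of scKO to control was 0.415 for Bard1 (44 counts against 117; exact 95% interval 0.287 to 0.592) and 0.431 for Fignl1 (25 against 64; 0.26 to 0.695). For Palb2 it was 1.104, with an interval of 0.206 to 5.93 that also covers the deep ratio of 0.210, so a change of that size was not detectable in shallow libraries. The shallow ratio of Blm was 0.874 (0.453 to 1.66) and that of Brca2 0.778 (0.475 to 1.26). These intervals treat UMIs as independent and leave out the spread between libraries, as the plot of summed counts does.

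**Figure D1:**
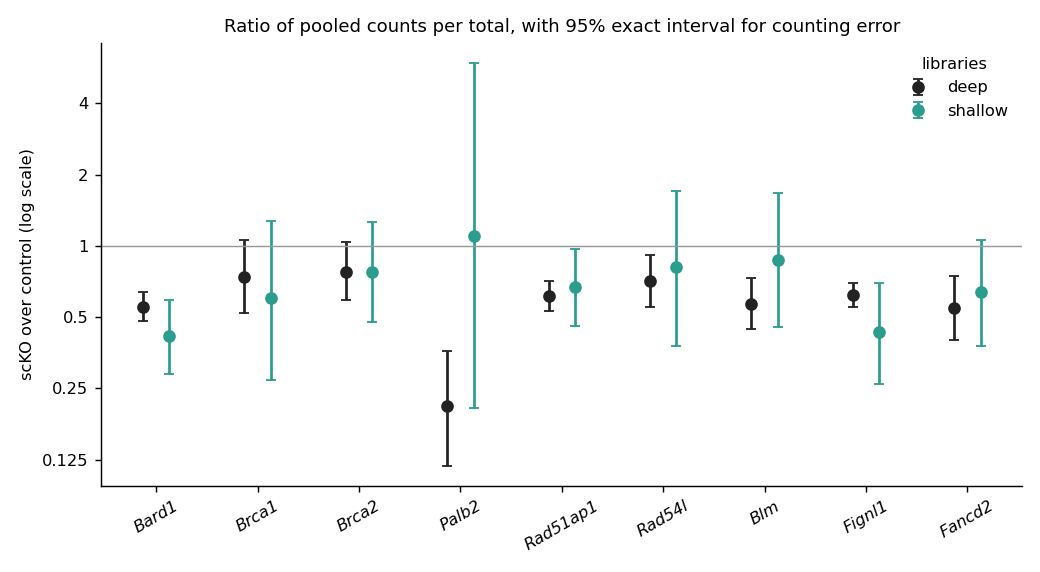
Ratio of scKO to control counts per total (vertical axis, log scale), summed over the deep (black) and shallow (green) libraries for each of the 9 genes; bars are exact 95% intervals for counting error. All 9 deep ratios lie under 1, from 0.210 for Palb2 to 0.779 for Brca2. The deep intervals of Brca1 (0.520 to 1.06) and Brca2 (0.588 to 1.03) include 1. In the shallow class only the intervals of Bard1, Rad51ap1 and Fignl1 lie under 1.

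Over all 18 libraries with the depth class as a covariate, Bard1, Rad51ap1 and Fignl1 passed the count filter. Bard1 had a log2 fold change of -1.03 (SE 0.18; adjusted p = 0.00623 by edgeR) and Fignl1 one of -0.84 (SE 0.15; adjusted p = 0.00515 by edgeR), so 2 of the 3 fell, against 0.352% of all 7662 genes tested; 0.326% rose and 51.6% had a negative value. Rad51ap1 had -0.65 (SE 0.20; adjusted p = 0.139 by edgeR). With the replicate number as a block Fignl1 lost its call (log2 fold change -1.05, adjusted p = 0.0612 by edgeR), and with the group alone in the model both genes did (edgeR adjusted p = 0.109 for Bard1 and 0.935 for Fignl1). The effect did not differ past the threshold between the depth classes for any of the 3, with an interaction of 0.41 (SE 0.37) for Bard1, -0.16 (SE 0.41) for Rad51ap1 and 0.52 (SE 0.30) for Fignl1 on the log2 scale (adjusted p = 0.942 to 0.984 by edgeR).

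For 5 of the 9 genes the annotation places another gene head to head with it, starting within 1000 bases on the opposite strand. The pairs are Brca1 and Nbr1, an autophagy receptor; Palb2 and Dctn5, a subunit of dynactin; Rad54l and Pomgnt1, an enzyme that builds the sugar chains of dystroglycan; Fancd2 and Emc3, part of a membrane insertion complex; and Rad51ap1 and D6Wsu163e. The annotated starts of these pairs lie 194, 56, 150, 30 and 375 bases apart in the same order. Past the threshold, 0 of the 5 neighbours fell in deep libraries and 1, Nbr1, rose. Dctn5 had 42.5 and 49.2 CPM in control and 47.2, 46.6 and 47.1 CPM in scKO, which overlap, and a log2 fold change of 0.03 (SE 0.12; 95% interval -0.23 to 0.29; adjusted p = 0.907 by edgeR). Palb2 reached 14.1% and 10.2% of the Dctn5 count in control 1 and 2, and from 1.08% to 4.42% in scKO.

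Nbr1 was higher in scKO, at 374 and 323 CPM in control and 439, 431 and 469 CPM in scKO (log2 fold change 0.36, SE 0.11, adjusted p = 0.0445 by edgeR). D6Wsu163e, Pomgnt1 and Emc3 had log2 fold changes of 0.04, -0.03 and 0.09 (SE 0.13, 0.11 and 0.11; adjusted p = 0.867 by edgeR, 0.9 and 0.635), and the groups overlapped for each. For Palb2, Rad51ap1 and Fancd2 the interval of the fold change did not overlap that of the neighbour, as the plot of the pairs shows; the difference within a pair was not tested. Lrrc41, which shares exonic bases with Rad54l on the other strand, had 0.08 (SE 0.11; adjusted p = 0.665 by edgeR), and Gm42529, Gm16326 and Fancd2os, which overlap exons of Brca2, Palb2 and Fancd2, did not pass the count filter. In shallow libraries the 5 neighbours had log2 fold changes from -0.01 to 0.27, none called.

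**Figure D2:**
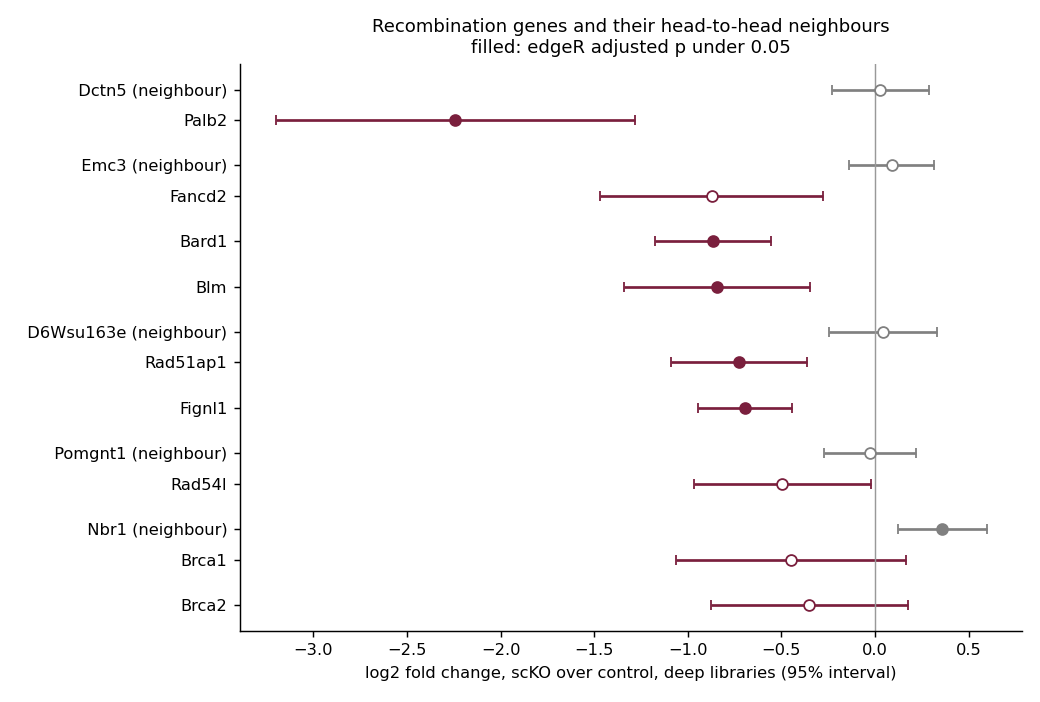
Log2 fold change of scKO over control in deep libraries (horizontal axis) for the 9 recombination genes (dark red) and the genes head to head with 5 of them (grey), with 95% intervals; filled points have an edgeR adjusted p under 0.05. All 9 dark red points lie left of 0, while the grey points lie between -0.03 and 0.36.

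The stretch between the starts is the DNA that such a pair shares, and it is printed for the 3 pairs for which the promoter table covers it whole. Each is read 5′ to 3′ on the minus strand, the strand of the recombination gene, from RefSeq's promoter table for GRCm38.p6, and lies between the starts annotated in GENCODE. Capitals mark a CCAAT box, the binding sequence of the factor NF-Y, in either orientation. The Palb2 stretch is chr7:122132986-122133040, the Rad54l stretch chr4:116123691-116123839 and the Brca1 stretch chr11:101551956-101552148.
Palb2 to Dctn5: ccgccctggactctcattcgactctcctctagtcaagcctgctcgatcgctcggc
Rad54l to Pomgnt1: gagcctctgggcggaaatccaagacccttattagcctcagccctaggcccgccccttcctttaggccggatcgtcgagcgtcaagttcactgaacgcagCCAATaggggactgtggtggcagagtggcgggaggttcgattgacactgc
Brca1 to Nbr1: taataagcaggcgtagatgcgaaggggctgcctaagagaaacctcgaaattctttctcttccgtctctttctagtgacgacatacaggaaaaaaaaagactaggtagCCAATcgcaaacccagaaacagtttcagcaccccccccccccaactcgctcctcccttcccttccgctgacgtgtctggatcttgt

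The DNA before Bard1 and Fignl1 is shown because those 2 genes fell in the deep libraries and over all libraries. Here capitals mark the core of an E2F site, searched as TTCCCGC and its variants TTCGCGC in one form, TTGGCGC in another and TTGCCGC in the last, or the CHR element, searched as TTTGAA and with a central CG as TTCGAA, sequences at which cell cycle genes are known to be switched on and off. Both lie on the minus strand, Bard1 at chr1:71103147-71103222 and Fignl1 at chr11:11808963-11809212.
Bard1: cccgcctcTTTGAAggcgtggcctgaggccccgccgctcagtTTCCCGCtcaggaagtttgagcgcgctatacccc
Fignl1: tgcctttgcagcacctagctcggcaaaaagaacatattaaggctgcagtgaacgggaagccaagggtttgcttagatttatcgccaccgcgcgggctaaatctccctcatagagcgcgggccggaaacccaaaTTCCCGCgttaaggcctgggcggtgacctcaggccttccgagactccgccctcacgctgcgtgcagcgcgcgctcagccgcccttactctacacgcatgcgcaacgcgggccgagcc

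RefSeq's table held 8 of the 9 genes; Fancd2 had no entry. In the 250 bases before the RefSeq start, searched on both strands, an E2F core was found in 4 of the 8, Bard1, Blm, Brca2 and Fignl1, against 9.01% of the 27025 genes in the table and 16.3% of the 9728 genes tested in deep libraries. A CCAAT box (CCAAT) was found in 4, Blm, Brca1, Rad51ap1 and Rad54l, against 37.5% of all genes, and the CHR element in Bard1 alone, against 19.6%. The Sp1 motif GGGCGG was found in 5 of 8 (35.4% of genes) and the NRF1 motif GCGCATG in Fignl1 alone (3.68%). Among the genes tested in deep libraries the shares were 40.6% for the CCAAT box, 14.4% for the CHR element, 65.0% for Sp1 and 6.73% for NRF1. None of the motifs overlapped another in these windows. No E2F core was found before Brca1, Palb2, Rad51ap1 or Rad54l, the 4 genes with a head-to-head neighbour that were searched. The RefSeq start lies 174 bases inside the gene as GENCODE annotates it for Bard1 and 121 bases inside it for Blm, and in a window of 150 bases only Blm and Fignl1 kept an E2F core. A match describes these letters, not a bound site.

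Other genes of recombination were lower in scKO as well. Of 59 further genes listed for the pathway, 57 were tested in deep libraries, 44 had negative log2 fold changes (median -0.36), 13 fell and 0 rose. Rpa1 and Rpa2, which coat single-stranded DNA, fell with log2 fold changes of -0.75 and -0.49 (edgeR). Dna2 and Exo1, the nucleases that resect ends, fell with -1.03 and -0.85, and Rad50, part of the complex that senses ends, with -0.51. Topbp1, which activates the checkpoint kinase Atr, fell with -0.76, Rmi1, a partner of Blm, with -0.50, and BC055324, whose product binds Fignl1, with -0.82. Also lower were Gen1, a nuclease that cuts joined DNA, Polq, a polymerase of alternative end joining, Mnd1, which assists strand exchange in meiosis, and Nucks1, a chromatin protein, with log2 fold changes from -0.84 to -0.48. With the depth class over all libraries 26 were tested, 20 had negative values (median -0.22), 1 fell and 0 rose. Topbp1, Rpa2 and Rpa1 had -0.55, -0.57 and -0.42, not called.

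Of 16 further Fanconi anaemia genes, 15 were tested in deep libraries, 13 had negative values (median -0.32) and 4 fell. These were Fancb and Fanca, subunits of the core ubiquitin ligase complex, with log2 fold changes of -0.86 and -0.80, Usp1, which removes the ubiquitin from Fancd2, with -0.68, and Faap24, a core complex partner, with -0.49. Over all libraries 0 of 7 tested were called by edgeR and 1 had an unadjusted p under 0.05, with Usp1 at -0.47, Faap20 at -0.22, Fancl at 0.24 and Fancm at -0.25.

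The lists of other repair pathways had medians from -0.27 to 0.09 in deep libraries. In shallow libraries the medians ran from -0.35 for 5 genes of end joining to -0.02 for 8 of base excision repair. The other recombination genes had a median of -0.14 there, for 20 tested, and no gene of these lists was called. In deep libraries 6 of 15 genes of non-homologous end joining had negative values (median 0.09), with 0 lower and 1 higher past the threshold. Nucleotide excision repair had 8 of 19 negative (median 0.03), 1 lower and 0 higher; base excision repair had 13 of 20 negative (median -0.09), 2 lower and 0 higher; and mismatch repair had 5 of 7 negative (median -0.27), 2 lower and 1 higher. The genes past the threshold in deep libraries were named after their values were seen. They were Paxx (0.73) of end joining, Ercc8 (-0.46) of excision repair, and the uracil and thymine glycosylases Ung (-0.75) and Mbd4 (-0.89). The mismatch repair genes past it were Msh6 (-0.61), Pms2 (-0.67) and Mlh3 (0.66). Paxx had 0.07 over all libraries and -0.36 in shallow libraries, not called in either. Among the genes with the smallest p of these lists over all libraries, Prkdc, the kinase of end joining, had a log2 fold change of 0.31, Ercc8, of transcription-coupled repair, -0.49, and Apex2, an abasic site nuclease, -0.28, none called.

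Genes of cell division had medians near that of the 9 genes in deep libraries. Over all libraries the medians were -0.45 for 28 genes of DNA replication and -0.48 for 21 of G2 and mitosis. The only 3 of the 9 genes that passed the count filter there had a median of -0.84, and the 26 other recombination genes tested had -0.22. In shallow libraries the medians were -0.25 for 23 replication genes and -0.38 for 20 of G2 and mitosis, with 0 called. In deep libraries all 34 genes of DNA replication had negative values (median -0.72; 28 fell) and so had all 23 of G2 and mitosis (median -0.68; 21 fell). Over all libraries Chaf1b, a histone chaperone subunit, and Tyms and Tk1, which make thymidylate, fell with log2 fold changes of -0.80, -0.89 and -0.67. Kif11, the kinesin that parts the spindle poles, Cenpe, a kinetochore motor, and Cdc20, which activates the anaphase-promoting complex, fell with -0.95, -0.75 and -0.62. Of 19 regulators of the E2F and Rb family, 12 had negative values in deep libraries (median -0.28), with 6 lower and 1 higher. The gene that rose was Rb1, the retinoblastoma protein gene, with 0.67 (adjusted p = 0.000726 by edgeR), named after its value was seen. Over all libraries 5 of 12 had negative values (median 0.01), with 0 called by edgeR and 2 at an unadjusted p under 0.05, and Rb1 had 0.25. The mitotic factor Foxm1, the Rb relative Rbl1 and E2f1 fell with log2 fold changes of -0.65, -0.38 and -0.39 in deep libraries and had -0.46, -0.48 and -0.31 over all libraries, not called there. The part of this shift in the values of the 9 genes was not tested.

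**Figure D3:**
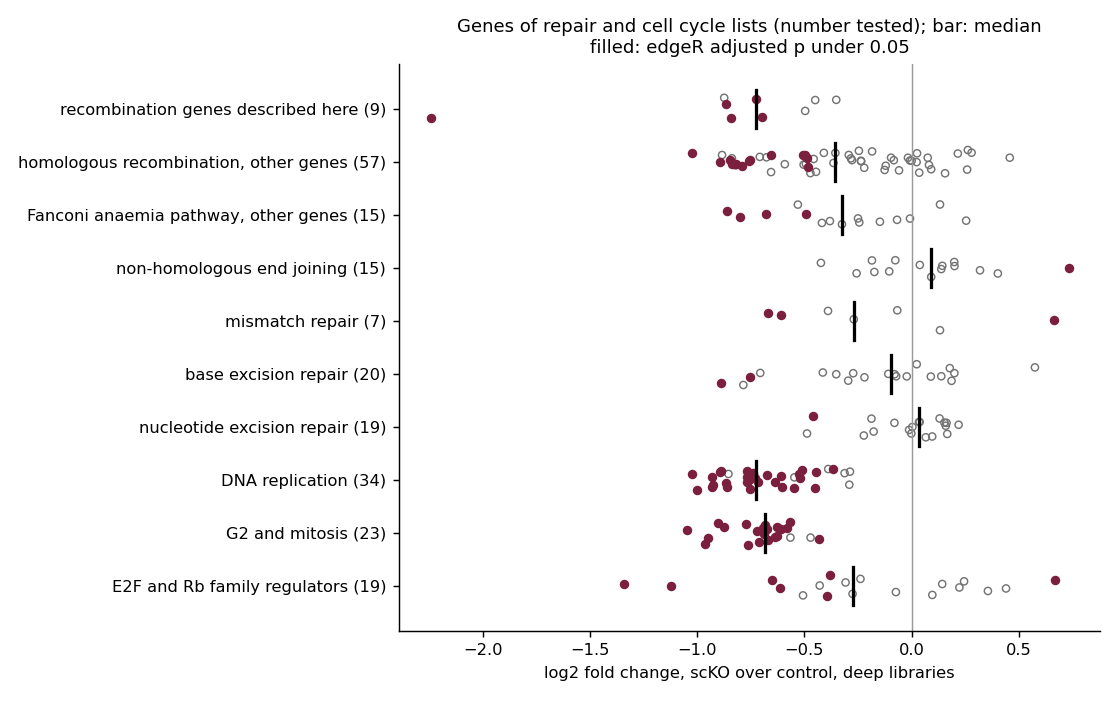
Log2 fold change of scKO over control in deep libraries (horizontal axis) for each tested gene of 10 lists (rows, with the number tested); vertical bars are medians and filled points have an edgeR adjusted p under 0.05. The medians of the 9 recombination genes, DNA replication and G2 and mitosis lie between -0.73 and -0.68, and those of end joining and of nucleotide excision repair just above 0.

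Markers of the labelled cell type were abundant in every library, with 9 myogenic genes summing to 3819 to 4789 CPM in deep controls and 3875 to 4324 CPM in deep scKO. Markers of other cells were lower. The 6 Schwann cell markers summed to 26.3 to 39.2 CPM in deep controls and 48.2 to 74.3 CPM in deep scKO, while shallow controls ranged from 33.0 to 143 CPM (median 132) and shallow scKO from 14.1 to 76.3 CPM (median 38.2). All 6 were detected in each group. The 5 smooth muscle and pericyte markers summed to 251.7 to 260.5 CPM and 291.6 to 309.5 CPM in the deep groups. The shallow groups overlapped. Of 4 tested in deep libraries, 2 rose past the threshold, Myh11 and Abcc9, with log2 fold changes of 1.61 and 1.19, and 0 fell. Of 5 Schwann markers tested there, 2 rose, Sox10 and Foxd3, with 1.96 each, and 0 fell. In shallow libraries Sox10 had -1.35 and Abcc9 0.33, not called. Of the 9 myogenic genes, 1 fell in deep libraries, Myf5 with -0.33, and 0 rose. The 7 fibro-adipogenic markers gave 55.0 to 65.4 CPM and 64.3 to 75.7 CPM in deep control and scKO. The 6 endothelial markers gave 13.1 to 42.8 and 15.6 to 24.2 CPM, and the 7 leukocyte markers 4.09 to 9.09 and 6.54 to 18.6 CPM. Ptprc, Adgre1 and Cd3e, which define leukocytes, macrophages and T cells, were at 0 in both deep controls. In the deep scKO group all 7 leukocyte markers were detected. Adgre1, Cd3e and Cd79a were at 0 in both shallow groups, where Ptprc was detected. The part of these other cells in the results was not tested.

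Over the 18 libraries, centred within each depth class, 5 genes followed the mean of Bard1, Rad51ap1 and Fignl1 most closely. These were Htr1b, a serotonin receptor (Pearson r = 0.838), Dpysl2, a microtubule-binding protein (0.827), Hoxa10 (0.807), Slf2, which brings the Smc5/6 complex to damaged DNA (0.788), and Ubap2l, a stress granule protein (0.773). The median over the 7659 genes compared was -0.02. All values come from the same libraries, and the difference between the groups is part of each correlation. Htr1b was also lower in scKO over all libraries (log2 fold change -0.74, SE 0.16, adjusted p = 0.0327 by edgeR), as was Hoxa10, and the other 3 were not called there. In deep libraries Htr1b and Slf2 fell with -0.82 and -0.31 (adjusted p = 0.00393 and 0.0381 by edgeR), while Dpysl2 and Ubap2l were not called.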

How the data were processed

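RNA was sequenced in 9 control and 9 scKO libraries. The authors deposited a table of raw UMI counts per gene. The submitters' processing notes list the aligner HISAT2, the counter HTSeq (no version) and the rat build Rnor_6.0, while identifiers are mouse Ensembl genes. The annotation release, UMI length and use of strand are not given in the sources used here. Reads of Brca2, Palb2, Rad54l and Fancd2 therefore cannot be told from those of genes on the other strand that share 41, 414, 1184 and 257 exonic bases with them. The highest count was 4096, as many as there are UMIs of 6 bases. Features without a symbol (313) held 0.041% of counts.

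Classes were split at 2000000 counts. Genes kept by filterByExpr (minimum count 10) were scaled by TMM and tested with edgeR 4.0.16 (quasi-likelihood, robust, R 4.3.3) with Benjamini-Hochberg adjustment over all genes tested, in deep libraries, in shallow libraries, and in all libraries with the depth class. SE is the log2 fold change divided by the root of F. DESeq2 1.42.0, limma-voom (limma 3.58.1), other filters and scaling, UMI collisions, left-out libraries and a replicate block were alternatives. The code was tested on simulated counts. The members and lists were chosen with earlier results of these data known. Genes named were all members and head-to-head neighbours, called recombination and Fanconi genes or else the 4 with the smallest p, up to 3 per other list, and the 5 most alike, by the correlation of log2 CPM (prior count 2). Positions are from GENCODE M21. Of the other recombination genes, 1 is not reported by name here.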

Additional observations from a re-analysis of the deposited data

Results flagged for a closer look

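Of 18 groups of shallow libraries examined for a library far from the others (9 genes in 2 groups), 2 had one, and chance gives about 1 in 20. Both concern control 9, the library with the lowest total. Brca2 was at 18.4 CPM there, from 7 counts, while the next control had 10.2 CPM. Palb2 was at 5.26 CPM, from 2 counts, under the floor of 3, while the next control had 1.14 CPM.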

How the results depend on the processing

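All 215 fold changes counted for the 9 genes under alternative settings were negative. Only genes that passed the count filter in the main fit of a class were counted. So 6 of the 9 genes entered through deep libraries alone, and the settings reuse the same libraries. The 5 calls in deep libraries became 3 with DESeq2 (Bard1, Rad51ap1 and Fignl1; Palb2 had no adjusted p), 6 with limma-voom, no filter, a stricter filter or the UMI collision correction, where Fancd2 passed, and 4 to 6 when 1 library was left out; 1 control then remains in some fits and is assumed to vary like the other group. Genes called there ranged from 996 to 1810. Over all libraries the 2 calls became 3 with DESeq2, no filter or without the 4 libraries that stood apart, 1 with a stricter filter, which removed Fignl1, 1 with the replicate block and 0 with the group alone; they stayed 2 without each library in turn. The 52 genes called there became 390 with DESeq2, 100 with limma-voom, 359 with no filter, 22 with a stricter filter, 14 with the replicate block, 617 without those 4 libraries (control 7, 8 and 9 and scKO 1) and 1 with the group alone, and 11 (without control 1) to 216 (without scKO 1) without 1 library. The 8 called genes of the other repair and cell cycle lists became 38, 23, 2, 1, 51 and 0 with DESeq2, no filter, a stricter filter, the replicate block, without those 4 libraries and with the group alone, and 1 to 25 without 1 library. In shallow libraries 3 called genes became 6 with DESeq2, 13 with no filter, 0 without those 4 libraries and 1 to 5 without 1 library. The E2F core was in 2 promoters, not 4, in the shorter window. The cause of these changes was not tested. Same-numbered libraries share only a number: the correlations of their deviations ran from -0.07 to 0.25 over 9 pairs. For 2 controls (3 and 5) the scKO library most alike had the same number. In shallow libraries the block used 4 pairs. Depth limits tests of 6 of the 9 genes to deep libraries.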

Other observations

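The depth classes differed in the level of most of these genes, and not evenly. They hold different libraries, and whether capture or the cells differed was not tested. In controls, Palb2 was at 5.42 CPM of summed counts in deep libraries and 0.831 CPM in shallow ones. The shallow value came from 4 counts, 2 of them in control 9. The ratio was 6.52, and 3.91% of the genes tested in deep libraries exceeded it. Genes entered this comparison by passing the count filter in deep libraries, which favours high ratios, so the shares and the median only describe. Fignl1 had a ratio of 4.54, exceeded by 7.93% of genes. Brca2 and Fancd2 had ratios of 0.985 and 0.963, below the median of 1.63 over genes. The ratios of Brca1, Bard1, Rad51ap1, Blm and Rad54l lay between 1.29 and 2.92.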
